A study of Mus musculus with 2 samples.

Results

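Mir183, Mir96 and Mir182 are 3 microRNA (miRNA) genes that sit side by side on mouse chromosome 6 and are known together as the miR-183 cluster. They were taken by name, as the rows whose Ensembl identifiers match these symbols in the mouse annotation. That gave 3 of the 1973 genes in each table. No count entered this rule, but the members were chosen with earlier results of these data known. Both tables come from microRNA sequencing of intestine of B6NCrl mice at postnatal day 0, labelled as 1 intestine per pup. The animals, called pup 2 and pup 1, were littermates from 1 pregnant female, with 1 library each. The labels name no treatment, genotype, gut segment or sex, so the series has 1 group of 2 animals and no second condition. Below, ± is the SD over the 2 pups, and levels are in CPM, a gene's counts scaled to a library of 1000000 miRNA counts.

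Such clusters are usually copied into 1 long primary transcript, from which the enzymes Drosha and Dicer cut a separate hairpin and then a short duplex for each miRNA. The strand that stays bound to Argonaute finds its target messages mainly through the seed, bases 2 to 8 from its 5′ end. The miR-183 cluster is best known from sensory cells such as hair cells of the inner ear, photoreceptors and olfactory neurons. Mutations in the miR-96 seed cause progressive hearing loss in people and in mice. MiR-182 is also known from activated helper T cells of the mouse, where it lowers Foxo1.

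On GRCm38 all 3 genes lie on the minus strand and are read in the order Mir183, Mir96, Mir182. Mir183 is chr6:30169668-30169737, Mir96 is chr6:30169446-30169551 and Mir182 is chr6:30165918-30165992. A gap of 116 bases separates Mir183 from Mir96, and 3453 bases separate Mir96 from Mir182, within a span of 3820 bases. In GENCODE M21 no other gene overlaps that span. RefSeq places the whole span inside Mirc35hg, a long non-coding RNA gene of the same strand (chr6:30158640-30174125). The nearest protein-coding genes are Nrf1, 12459 bases away on the Mir182 side, and Ube2h, 41551 bases away on the Mir183 side.

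The mature 5p sequences are shown because their seeds decide which messages each miRNA can bind. They are from RefSeq on GRCm38.p6, written 5′ to 3′ with the seed in capitals:
miR-183-5p: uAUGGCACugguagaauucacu
miR-96-5p: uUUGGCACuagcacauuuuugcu
miR-182-5p: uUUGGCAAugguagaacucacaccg

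The 3 seeds are near relatives, and each is different. Bases 3 to 7 (uggca) are the same in all 3. Counted from base 1 at the 5′ end, miR-96-5p differs from miR-183-5p in the seed by A2U, and miR-182-5p differs from miR-96-5p by C8A. MiR-182-5p carries both A2U and C8A relative to miR-183-5p. Over the full length, seed included, the likeness runs the other way. Over 22 positions without gaps miR-183-5p and miR-182-5p match at 18, whereas miR-183-5p and miR-96-5p match at 13. Over 23 positions miR-96-5p and miR-182-5p match at 12.

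The hairpins are shown because reads were counted over them, so that each count joins both arms. Capitals mark the 5p arm and then the 3p arm:
Mir183: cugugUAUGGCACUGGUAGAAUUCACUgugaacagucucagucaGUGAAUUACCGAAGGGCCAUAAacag
Mir96: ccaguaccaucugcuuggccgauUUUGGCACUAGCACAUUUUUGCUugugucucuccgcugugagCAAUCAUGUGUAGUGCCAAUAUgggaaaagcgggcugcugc
Mir182: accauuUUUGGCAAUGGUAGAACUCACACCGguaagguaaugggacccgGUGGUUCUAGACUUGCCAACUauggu

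The annotated genes are 70, 106 and 75 bases long for Mir183, Mir96 and Mir182. No gene was credited with a read that mapped to more than 1 place, so shared sequence can lower a count. Among 1894 annotated miRNA hairpins, the longest run that Mir183 shares with another is 14 bases, with Gm25707. Mir96 and Mir182 share no run of 12 bases or more with any. Of 1738 mature miRNAs in the RefSeq table, only miR-1271-5p has the seed of miR-96-5p, and none other has the seed of miR-183-5p or miR-182-5p. It is shown to set its seed beside that of miR-96-5p, and it comes from chromosome 13:
miR-1271-5p: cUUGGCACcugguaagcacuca

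The miR-1271 gene, Gm24195 in the annotation, had 0 counts in both pups. With no read seen, as many as 3 counts remain possible, a limit of 0.640 CPM for pup 2 and 0.841 CPM for pup 1. Of the genes whose annotated arms hold that seed, Mir96 alone was detected, by a count that does not separate its arms. Among the 3p arms, the seed of miR-96-3p recurs in miR-3475-5p, whose gene Mir3475 had 2 counts in each pup, below that limit.

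Sequencing gave 8373497 reads for pup 2, 4683939 of them counted for a miRNA gene on its annotated strand. For pup 1 it gave 6375694 reads, with 3567658 so counted. On that scale 1 count is worth 0.213 CPM in pup 2 and 0.280 CPM in pup 1. A gene with at least 10 counts in each library is called detected here, and 314 of 1973 were. By lists of marker miRNAs, chosen with earlier results of these data known, the tissue read as intestine. All 12 epithelium genes were detected and took 32.9% ± 3.37 of counts, led by Mir215, Mir429 and Mir192. The smooth muscle pair, mostly Mir143, took 16.6% ± 2.19, and endothelial Mir126a took 5.22% ± 0.342. The enteroendocrine list took 1.19% ± 0.00142, the neural list 0.169% ± 0.00331, the leukocyte list 0.128% ± 0.0167 and the erythroid list 0.0124% ± 0.00329. Of the 5 leukocyte genes listed, 4 were found. Mir142a matched no gene, so the leukocyte share leaves it out. Of the 19 neural genes listed, 18 were found and 5 stood at 0, so the neural share may be too low. Intestine was sequenced as a mixed tissue, so fewer cells of a type and less of an RNA per cell cannot be told apart.

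All 3 cluster genes were well above the detection limit, and Mir182 was the highest. Mir182 had 19706 counts (4207 CPM) in pup 2 and 9836 counts (2757 CPM) in pup 1. Mir183, the first hairpin of the transcript, had 7423 counts (1585 CPM) in pup 2 and 5561 counts (1559 CPM) in pup 1. Mir96, the sensory-cell miRNA of the hearing-loss mutations, had 6958 counts (1486 CPM) in pup 2 and 4237 counts (1188 CPM) in pup 1. Every gene was thus nominally higher in pup 2. The order Mir182, Mir183, Mir96 was the same in both animals.

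**Figure D1:**
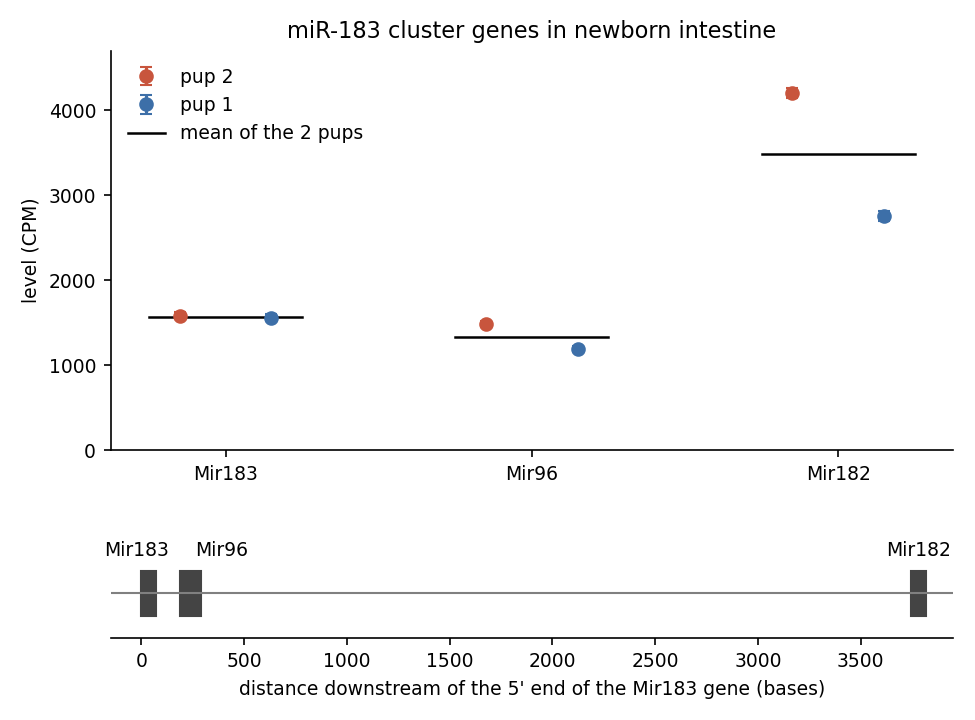
Upper panel: the level of each cluster gene in CPM, by pup (points), with exact Poisson intervals at 95% for the counts (bars) and the mean of the 2 pups (black lines). Lower panel: the genes drawn to scale in transcription order, as distance in bases from the 5′ end of Mir183. Mir182 stands at 4207 CPM in pup 2 and 2757 CPM in pup 1, while the Mir183 points nearly coincide.

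As means, Mir182 stood at 3482 ± 1025 CPM, Mir183 at 1572 ± 18.4 CPM and Mir96 at 1337 ± 211 CPM. Relative to its mean, the SD was 29.4% for Mir182, 15.8% for Mir96 and 1.17% for Mir183. With exact Poisson intervals at 95%, Mir182 ran from 4149 to 4266 CPM in pup 2 and from 2703 to 2812 CPM in pup 1. Mir96 ran from 1451 to 1521 CPM in pup 2 and from 1152 to 1224 CPM in pup 1. For Mir183 the intervals overlapped, from 1549 to 1621 CPM in pup 2 and from 1518 to 1600 CPM in pup 1. These intervals cover counting error only, since without molecular identifiers a molecule may be read more than once. CPM is not divided by gene length, since reads are of mature miRNA size. Levels of different miRNAs also hold any difference in how well each was captured in the library, which was not measured.

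Among the 314 detected genes Mir182 ranked 40 by mean CPM, Mir183 ranked 66 and Mir96 ranked 73. Mir182 ranked 36 in pup 2 and 47 in pup 1. The genes nearest to each in level, by distance of log2 CPM over the 2 libraries, were all from other loci. For Mir183 they were Mir125a (1562 ± 64.9 CPM), Mir324 (1537 ± 17.9 CPM) and Mir188 (1542 ± 7.37 CPM), at distances of 0.045 to 0.046. For Mir96 they were Mir351 (1388 ± 16.0 CPM), Mir484 (1486 ± 12.3 CPM) and Mir434 (1308 ± 110 CPM), at 0.26 to 0.35. For Mir182 they were Mir93 (3553 ± 302 CPM), Mir15a (3308 ± 98.5 CPM) and the epithelial miRNA Mir200a (2886 ± 200.4 CPM), at 0.32 to 0.47. With 2 libraries this measures likeness of level and little else.

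Against marker miRNAs of gut cell types, the cluster was intermediate. Mir375, a miRNA of endocrine cells, had 11291 ± 86.5 CPM, above each cluster gene. The other leading members of the enteroendocrine list, Mir7b and Mir7-1, had 471 ± 69.3 CPM and 148 ± 27.4 CPM, below each. Mir7-1 shares a run of 24 bases with Mir7-2, so its counts are a lower limit. Of the neural list, Mir137 had 1052 ± 26.3 CPM, Mir132 had 267 ± 24.8 CPM and Mir138-1 had 138 ± 27.3 CPM. Mir138-1 shares a run of 24 bases with Mir138-2, and 5 neural genes were listed at 0, namely Mir219a-2, Mir9-2, Mir124a-1, Mir124a-2 and Mir124a-3. Such multi-copy miRNAs lose their multi-mapped reads. The epithelial Mir215 stood far above, at 154539 ± 23262 CPM, as did Mir429 at 35301 ± 173 CPM and Mir192 at 28894 ± 94.0 CPM. Per 1000 counts of the epithelium list, the cluster stood at 20.6 in pup 2 and 18.0 in pup 1. The leukocyte list, which bears on the T cell role of miR-182, was led by Mir342 with 788 ± 134 CPM, with Mir142a not counted. The erythroid list was led by Mir451a with 85.1 ± 35.1 CPM. Which cells carried the cluster was not measured.

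The 3 genes together took 0.728% of miRNA counts in pup 2 (exact binomial interval 0.720 to 0.735%) and 0.550% in pup 1 (0.543 to 0.558%). Within the cluster Mir182 took 57.8% of the counts in pup 2 (57.3 to 58.3%) and 50.1% in pup 1 (49.4 to 50.8%). Mir183 took 21.8% in pup 2 (21.3 to 22.2%) and 28.3% in pup 1 (27.7 to 29.0%). Mir96 took 20.4% in pup 2 (19.99 to 20.84%) and 21.6% in pup 1 (21.01 to 22.16%). The share of Mir182 was thus larger in pup 2 and that of Mir183 smaller, while the share of Mir96 differed least.

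To see how even the 3 genes are for neighbours, detected genes of 1 strand were joined into clusters where starts lay within 10 kb. Of 40 such clusters the miR-183 cluster ranked 17 by share of counts. It had the smallest spread of the 12 clusters with 3 or more detected genes. Over all 40, pairs included, it ranked 11 from the smallest spread, and only pairs were more even. Its highest gene, Mir182, was 2.61-fold above its lowest, Mir96, in mean CPM, against a median of 78.5-fold over those 12. The 5 clusters of exactly 3 genes give a comparison at equal size. In them the spread was 2.61-fold here, 7.66-fold from Mir93 to Mir25, 12.2-fold from Mir429 to Mir200a, 38.6-fold from Mir23a to Mir24-2 and 69.8-fold from Mir467c to Mir669e. Lost multi-mapped reads bear on the widest of these, since Mir24-2 shares a run of 30 bases with another hairpin and Mir669e one of 24. For Mir200a the run is 17 and for Mir25 it is 12. Lost reads bear on the median of 78.5-fold as well. It lies between the Mir669e cluster and one with Mir19b-2 as lowest (87.2-fold), which shares a run of 25 bases with another hairpin.

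**Figure D2:**
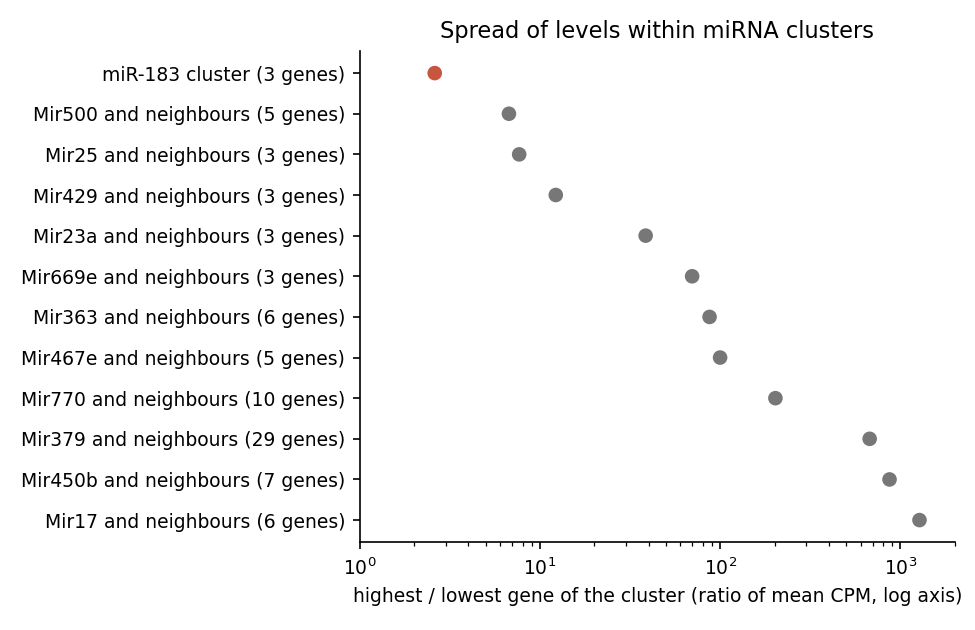
Highest over lowest gene within each of the 12 miRNA clusters with 3 or more detected genes, as a ratio of mean CPM on a log axis, with the number of genes in brackets. Larger clusters can spread further by their size. The miR-183 cluster, in red, has the smallest ratio, 2.61-fold.

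Ratios between the genes were then tested within the libraries. All pairs of detected genes of 1 strand with starts within 10 kb, 313 pairs of 139 genes, entered 1 edgeR fit, blocked by pup and read by its quasi-likelihood test. Each ratio is the upstream over the downstream gene. Mir96 had 0.353 counts per count of Mir182 in pup 2 and 0.431 in pup 1. In the fit Mir96 was 2.57-fold lower than Mir182, a log2 ratio of -1.36 ± 0.13 (SE; edgeR adjusted p = 0.000137). Mir183 had 0.377 counts per count of Mir182 in pup 2 and 0.565 in pup 1, and was 2.17-fold lower in the fit (log2 ratio -1.12 ± 0.17, SE; edgeR adjusted p = 0.00123). Mir182, the last hairpin of the transcript, thus exceeded both of its neighbours in each pup. Over the pups the SD of the log2 ratio was 0.41 for Mir183 with Mir182 and 0.20 for Mir96 with Mir182. The SE and p-value also draw on the spread of all 313 pairs, whose median SD was 0.14, so they do not measure the spread of a single pair.

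Mir183 and Mir96, only 116 bases apart, were not separated by the same test. Mir183 had 1.07 counts per count of Mir96 in pup 2 and 1.31 in pup 1, with a fitted log2 ratio of 0.24 ± 0.13 (SE; edgeR adjusted p = 0.125). When only neighbours within 1 kb were fitted, 89 pairs, the log2 ratio was 0.24 and passed (edgeR adjusted p = 0.0228). Their order is therefore uncertain, although Mir183 was the higher in both pups. An adjusted p above the threshold of 0.05 does not show that the levels are equal.

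Passing this test was common and is no mark of the cluster. Of all 313 pairs 93.6% were called, and 41.2% were called with the downstream gene higher, as Mir182 was. What the cluster pairs had was small ratios. By absolute ratio they ranked 227 (Mir96 with Mir182), 242 (Mir183 with Mir182) and 299 (Mir183 with Mir96) of 313. The median of the other 310 was 2.60 on the log2 scale, or 6.08-fold. The largest was Mir17 over Mir19b-1 (log2 10.30), ahead of Mir322 over Mir450-1 (9.78). Mir19b-1 and Mir450-1 each share a run of 25 bases with a copy, so these ratios are upper limits. The smallest were Mir541 over Mir369 (0.0035) and Mir431 over Mir434 (0.011). Pairs share genes, and 202 of the 313 lie on chromosome 12, so they are not independent.

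**Figure D3:**
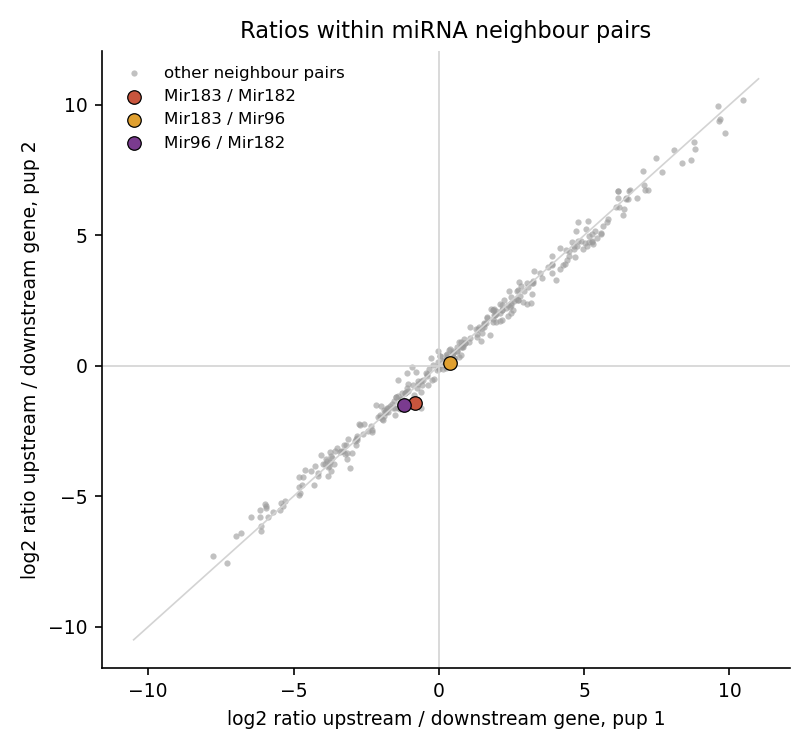
Log2 ratio of the upstream over the downstream gene in pup 2 (vertical) and pup 1 (horizontal) for 313 neighbour pairs, with the diagonal of equal ratios. The 3 cluster pairs (large points) lie near the centre, where ratios are small, and all 3 lie below the diagonal, since each ratio was lower in pup 2.

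These ratios also differed between the littermates, with the downstream gene gaining in pup 2 in each pair. The ratio of Mir183 to Mir182 was 0.67 times as large in pup 2 as in pup 1, a log2 difference of -0.59 (exact interval -0.65 to -0.52; Fisher's exact adjusted p = 3.18e-76). For Mir183 to Mir96 the log2 difference was -0.30 (-0.37 to -0.22; Fisher's exact adjusted p = 6.54e-14), and for Mir96 to Mir182 it was -0.29 (-0.35 to -0.22; Fisher's exact adjusted p = 1.97e-16). All 3 pairs were called, against 27.8% of the 313 pairs in either direction and 15.3% in this one. The 3 pairs are made from 3 genes, so their differences are not independent results. They also rest on the same counts as the single-gene ratios given next. The median absolute difference of the other 310 pairs was 0.19, and the cluster pairs ranked 21, 107 and 111 of 313. The test needs no scaling between libraries. It compares 2 libraries with no replicate of either animal, and pairs with more counts pass more easily.

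By single gene, Mir182 and Mir96 were higher in the library of pup 2, and the call for Mir183 depended on scaling. The libraries were compared gene by gene with an exact binomial test (2-sided), scaled by TMM factors and adjusted over the 314 detected genes. With 1 library per animal, its intervals and p-values cover counting error only, and not variation between animals or library preparations. Mir182 had 19706 counts in pup 2 and 9836 in pup 1, a log2 ratio of 0.65 (interval 0.62 to 0.69; exact binomial adjusted p = 5.50e-305). Mir96 had a log2 ratio of 0.37 (0.31 to 0.42; exact binomial adjusted p = 2.57e-38). Mir183 had a log2 ratio of 0.07 (0.02 to 0.12; exact binomial adjusted p = 0.0247). With total-count scaling Mir183 was at 0.02 (exact binomial adjusted p = 0.527), and with genes of at least 1 count in either library it was at 0.06 (exact binomial adjusted p = 0.142). All 3 were called higher, against 21.3% of all genes called higher and 41.1% called either way. Genes with more counts pass more easily, so these shares are not a background at equal counts. In transcription order the log2 ratios were 0.07 for Mir183, 0.37 for Mir96 and 0.65 for Mir182.

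The Mir182 difference was large for its level, but others between the 2 libraries were larger. The median log2 ratio over all 314 genes was 0.0022. Of the 73 genes with a mean level at or above that of Mir96, Mir182 had the highest log2 ratio, Mir96 ranked 6 and Mir183 ranked 30. Over all 314 genes Mir182 ranked 7, behind genes of lower counts such as Mir362 (1393 counts in pup 2 and 671 in pup 1). By absolute log2 ratio, in either direction, Mir182 ranked 15 of 314. The largest difference was that of Mir196b, at -4.91 (310 counts in pup 2 and 7337 in pup 1), whose mean level lay below that of Mir96. Next came Mir196a-2, at -3.31 (35 counts in pup 2 and 272 in pup 1). Whether the libraries hold the same parts of the gut was not tested, and the labels name no segment. The cluster as a sum was 1.36-fold higher in pup 2, with a log2 ratio of 0.45. Mir183 and Mir96 without Mir182 had 0.20. The log2 ratios of the 3 genes spanned 0.59, which ranked 4 of the 12 clusters of 3 or more genes, whose median span was 0.45.

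**Figure D4:**
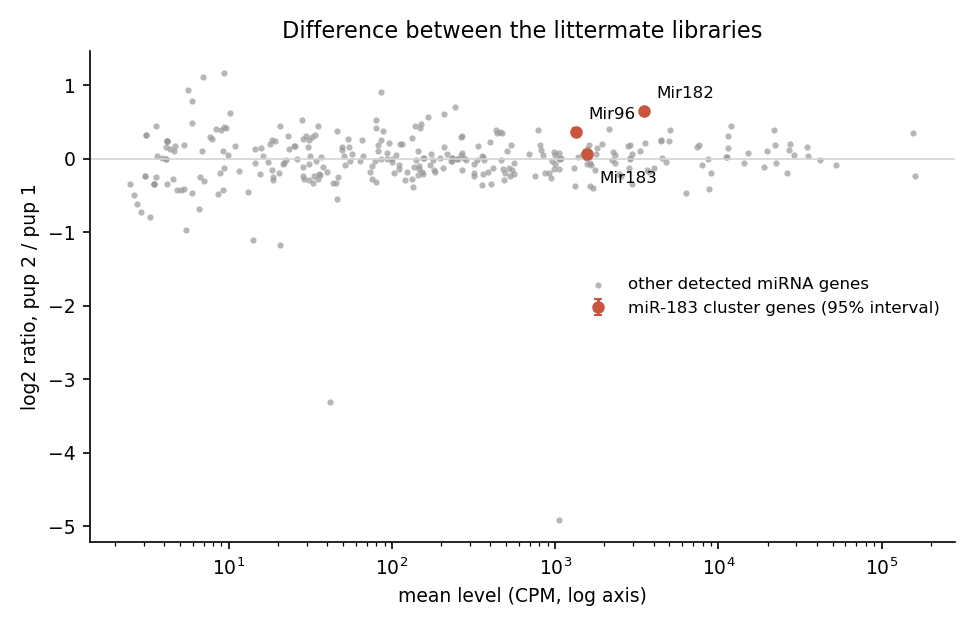
Log2 ratio of pup 2 over pup 1 with TMM scaling (vertical) against mean CPM (horizontal, log axis) for 314 detected genes. Cluster genes are in red with exact 95% intervals, mostly narrower than the points: Mir182 is at 0.65, Mir96 at 0.37 and Mir183 at 0.07.

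Marker miRNAs of epithelium moved between the pups as well. The epithelium list took 35.3% of counts in pup 2 and 30.6% in pup 1. Of its 12 genes 11 were called higher in pup 2 and 1, Mir205, lower, with a median log2 ratio of 0.19 and a range of -0.12 to 0.39. Over all 314 genes 41.1% were called, 21.3% as higher. Genes with many counts pass at small ratios, so the calls in these lists partly follow their counts. With total-count scaling 9 were called higher and 1 lower, and Mir429, at 0.03 with TMM scaling, was at -0.01. Of the 4 enteroendocrine genes 3 were called higher, with a median of 0.38, but the list took 1.194% of counts in pup 2 and 1.192% in pup 1. Mir375 was at 0.03 with TMM scaling and at -0.02 with total counts. Of the 11 neural genes detected, of 19 listed, 1 was called higher and 1 lower, with a median of -0.01. Of the smooth muscle pair 1 was called lower, Mir143 at -0.23, and endothelial Mir126a was called lower at -0.09. Of 4 detected leukocyte genes, of 5 listed, 2 were called higher, with a median of 0.13. Of 2 detected erythroid genes, of 3 listed, 1 was called higher, Mir451a at 0.91.

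Set against the summed epithelium list, the 3 genes did not share a direction. Per 1000 epithelium counts Mir182 had 11.9 counts in pup 2 and 9.02 in pup 1, a log2 ratio of 0.40. Mir96 had 4.21 in pup 2 and 3.89 in pup 1, a log2 ratio of 0.11. Mir183 had 4.49 in pup 2 and 5.10 in pup 1, a log2 ratio of -0.19. The sum leans on Mir215, with 800898 counts in pup 2 and a log2 ratio of 0.35 between pups. Mir429 (0.03), Mir192 (0.05) and Mir205 (-0.12) had lower ratios than Mir183 (0.07), and all other genes of the list had higher ones. The direction for Mir183 thus depends on the epithelial marker used. The part of the epithelial share in the difference between pups was not tested, and with 1 library per animal a difference between animals and one between libraries cannot be told apart.

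Reads from the cluster were almost wholly on the annotated strand. Mir182 had 3 reads on the opposite strand in pup 2 and 1 in pup 1, Mir183 had 1 in each, and Mir96 had 0 in each. That is 4 of 34091 reads on either strand in pup 2 and 2 of 19636 in pup 1. Over all miRNA genes the opposite strand held 3.33% of such reads in pup 2 and 3.42% in pup 1, although 294 of the 314 detected genes in pup 2 and 298 in pup 1 had no such read. Strand therefore had almost no bearing on the counts of the 3 genes.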

How the data were processed

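Small RNA (labelled size range below 30) of newborn mouse intestine was sequenced from 2 pups, 1 library each. The authors deposited raw read counts per miRNA gene on mm10 with GENCODE M4, per a text file deposited beside them; aligner and counter are not given in the sources used here. From their sums, the 3 count columns hold reads on either, the annotated and the opposite strand. The 4 rows that name no gene held 44.1% of reads in pup 2 and 44.0% in pup 1, multi-mapped reads among them (29.8% and 30.3%), and stayed out of library sizes and tests. Symbols and coordinates came from GENCODE M21, where 1894 of 1973 identifiers matched, the cluster genes with the same version. The other 79 held 0 counts.

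CPM and intervals were computed with SciPy 1.17.1. TMM factors came from edgeR 4.0.16 over genes with at least 10 counts in each library, on total counts. Neighbour pairs were tested by edgeR with the pup as a block, and p-values were adjusted by Benjamini-Hochberg with a threshold of 0.05. Alternatives used limma 3.58.1 (with 0.5 added to counts), DESeq2 1.42.0, other scalings, distances, count minimums and strands. Tested on simulated data, the binomial test recovered 95.7% of genes changed by a log2 of 1 among 314. The pair test recovered 100% of pairs with a log2 of 3 among 313, and Fisher's test 90.4% of pairs with a log2 of 1 among 313. Of unchanged features, 1.82%, 2.55% and 0.637% were called in that order. The pair simulation used ratios larger than those of the cluster, so it does not cover them. For the binomial and Fisher's tests the simulated counts held counting error only, with no other variation between libraries.

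Genes named are the cluster genes, the 3 nearest to each in level, carriers of a shared seed, the 3 highest of the epithelium, enteroendocrine and neural lists, the highest of each other list, and the 2 largest and 2 smallest pair ratios. Mir205, Mir362, Mir196b, Mir196a-2, Mir19b-2, Mir7-2, Mir138-2, the neural genes at 0 and the extremes of the 3-gene clusters were chosen after seeing their values. Mir142a is named because it matched no gene. The members and lists were chosen with earlier results of these data known.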

Additional observations from a re-analysis of the deposited data

How the results depend on the processing

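Of the alternatives, all kept the direction of the 3 pair ratios, of their differences between pups and of the 3 gene ratios between pups. With all reads as the denominator the mean levels were 879 CPM for Mir183, 748 CPM for Mir96 and 1948 CPM for Mir182, and the share was 0.358%, by construction of a larger total. With strand ignored Mir183 had 1519 CPM, against 1572. The log2 ratio of Mir183 between pups did not pass with total counts (0.024) or with a count minimum of 1 (0.056); the cause was not tested. Mir183 over Mir96 passed, at 0.24, when neighbours were limited to 1 kb; the cause was not tested. Without 1 pup, levels ran from 1559 to 1585 CPM for Mir183, 1188 to 1486 CPM for Mir96 and 2757 to 4207 CPM for Mir182, and the share from 0.550 to 0.728%.

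Without a replicate block the calls of the 3 pairs were the same, with log2 ratios of -1.15, 0.23 and -1.38 for Mir183 over Mir182, Mir183 over Mir96 and Mir96 over Mir182, and 293 pairs were called as with it. Counts of called pairs moved with the number fitted: 82 of 89 within 1 kb, 574 of 609 within 50 kb and 103 of 111 without chromosome 12, which was chosen after seeing the data, against 293 of 313. For the difference between pups they were 34, 150 and 45, against 87. Of all genes called between pups, 51.9% were higher in pup 2 with TMM scaling, 41.7% with total counts and 64.6% with the upper quartile. Depth does not limit the cluster genes, but 1 library per animal does.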
